A study of Arabidopsis thaliana with 12 samples.

Results

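The genes AT1G29070, AT3G13120 and AT3G54210 are nuclear genes of Arabidopsis thaliana for proteins of the plastid ribosome. They are read by 3 of the 3439 probes of the array, each of which names 1 gene and is the only probe for it. The rule of choice names the genes by identity, and it was set with earlier results of these data known. AT1G29070 and AT3G54210 encode proteins of the large subunit (PRPL34 and PRPL17 in the usual naming), and AT3G13120 encodes a protein of the small subunit (PRPS10). RNA of the mutant mak3 was compared with RNA of wild-type plants (WT), both of the ecotype Columbia 0, on 12 arrays of total RNA, 6 for each genotype. Per the labels mak3 lacks the normal function of a cytoplasmic N-acetyltransferase, an enzyme type that acetylates the first residue of newly made proteins. The comparison asks which transcripts differ in the mutant. The sources used here give neither the mak3 allele and the number of lines nor the tissue, age or growth of the plants.

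Plastids keep a bacterial-type ribosome. Its RNAs and some of its proteins are encoded by the plastid genome, and most of its proteins are encoded in the nucleus, made in the cytosol and imported. The ribosome translates the plastid-encoded core subunits of the photosystems, of ATP synthase and of the large subunit of Rubisco, so green tissue expresses these nuclear genes strongly while chloroplasts form. In RNA from whole tissue, fewer plastid-rich cells and less transcript in each cell cannot be told apart.

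Within a genotype, arrays 1 and 2, 3 and 4, and 5 and 6 had a Pearson's r of 0.976 to 0.993 over all log2 values, and other arrays of that genotype 0.841 to 0.940. Each such pair of arrays was averaged as 1 sample, which leaves n = 3 for each genotype. Nothing says that the samples came from separate plants, so the p-values cover the spread of these samples alone, and it may be technical. The median deposited intensity of an array lay between 0.420 and 0.599 in mak3 and between 0.559 and 0.605 in WT. Values were quantile-normalized, which removes such differences, and differences are given on the log2 scale. No probe was called at an adjusted p under 0.05 (limma, Benjamini-Hochberg over all 3439 probes), a percent called of 0 in either direction, while 135 probes had an unadjusted p under 0.05.

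In mak3 against WT, none of the 3 genes passed this test, and they did not share a direction. AT3G54210 of the large subunit averaged lower in mak3, by -0.22 ± 0.12 on the log2 scale (SE, n = 3 against 3). AT3G13120 of the small subunit averaged higher, by 0.22 ± 0.38, and AT1G29070 of the large subunit was at 0.08 ± 0.14. The adjusted p was 1 for each of them in limma, and 0.432, 0.413 and 0.840 for AT3G54210, AT3G13120 and AT1G29070 with the pair number as a replicate block. The absolute difference of AT3G54210 was larger than that of 60.4% of all probes, that of AT3G13120 larger than 60.5% and that of AT1G29070 larger than 27.3%.

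AT3G54210, the large-subunit gene, was the member whose deposited intensities separated the genotypes. The mak3 arrays 1 to 6 read 0.856, 0.887, 0.819, 0.903, 0.836 and 0.851, and the WT arrays 1 to 6 read 1.11, 1.04, 1.13, 1.06, 1.14 and 1.06. Every mak3 array lay below every WT array. The sample means were 0.859 ± 0.014 in mak3 and 1.09 ± 0.012 in WT (SD, n = 3 each). All 6 mak3 arrays lay below all 6 WT arrays for 87 of the 3439 probes, or 2.53%. On the deposited scale the difference was -0.35 on the log2 scale, with an unadjusted p of 0.00325 and an adjusted p of 0.754 in limma. The median of all probes was at -0.19 on that scale, and relative to it AT3G54210 was at -0.16.

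**Figure D1:**
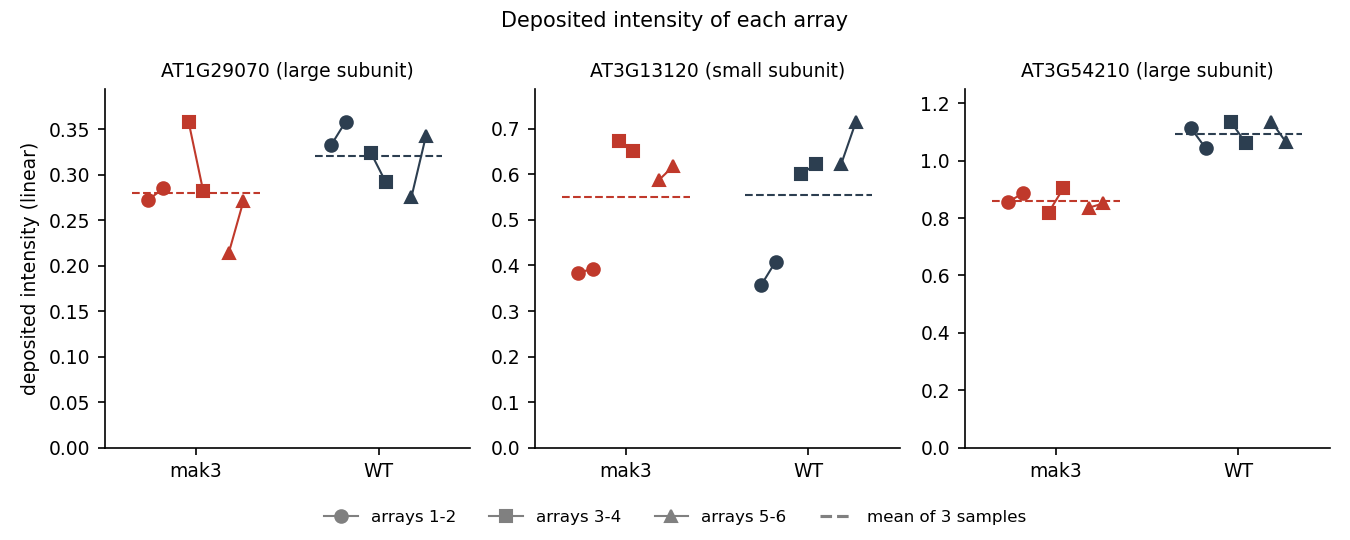
Deposited intensity (linear, each panel with its own axis from 0) of the 3 genes on each array, with mak3 left of WT, markers joined within each pair of arrays and dashed lines at the mean of 3 samples. For AT3G54210 the mak3 arrays read 0.819 to 0.903 and the WT arrays 1.04 to 1.14, while the arrays of AT3G13120 divide by pair and those of AT1G29070 overlap between genotypes.

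By pair, the deposited difference of AT3G54210 was nearly constant and the normalized one was not. As deposited it was -0.31, -0.35 and -0.38 in pairs 1-2, 3-4 and 5-6. The median of all probes on the same scale was 0.02, -0.15 and -0.44, so relative to it the gene was at -0.32, -0.20 and 0.06. After quantile normalization the difference was -0.40, -0.25 and 0.00. In pairs 1-2 and 3-4 both mak3 arrays lay below both WT arrays after normalization, and in pair 5-6 the arrays of the genotypes overlapped. The share of all probes that separate so within a pair was not counted. The 2 arrays of a pair read nearly alike, so such a separation is no test of the genotypes.

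On the normalized log2 scale the mak3 samples of AT3G54210 were at -0.35, -0.11 and 0.04, and the WT samples at 0.05, 0.14 and 0.04. The highest mak3 sample, at 0.0356, stayed just below the lowest WT sample, at 0.0382. All mak3 samples lay below all WT samples for 140 probes, or 4.07% of all. The difference was below 0 in all 3 pairs, as it was for 20.2% of all probes, though in pair 5-6 by only -0.0026. The mak3 samples of this gene varied more (SD 0.20) than the WT samples (SD 0.06). The exact two-sided permutation test over samples, which leaves out the pairing, gave p = 0.1, the smallest that 3 samples against 3 can give, and sign flips over 3 pairs cannot give a p below 0.25. This separation depended on the scaling. With median scaling, pair 5-6 was at 0.14, the highest mak3 sample (0.12) lay above all WT samples (-0.02 to 0.08) and the exact test over samples gave p = 0.5. With neighbouring probes taken off, pair 5-6 was at 0.06, the samples overlapped and the exact test gave p = 0.4. The 95% interval of the difference ran from -0.53 to 0.09 and includes 0. The genotypes held 46.0% of the variation of the 6 samples and the pairs 27.9%, against medians of 9.64% and 71.0% over all probes.

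AT3G13120, the small-subunit gene, varied far more between pairs than between genotypes. Its deposited intensity on mak3 arrays 1 to 6 was 0.384, 0.392, 0.674, 0.650, 0.587 and 0.618, and on WT arrays 1 to 6 it was 0.356, 0.408, 0.600, 0.622, 0.623 and 0.715. In both genotypes arrays 1 and 2 read lower than the other 4. On the normalized log2 scale pair 3-4 was above pair 1-2 by 0.99 in mak3 and 0.70 in WT, and pair 5-6 was above pair 1-2 by 1.05 in mak3 and 0.72 in WT. The pairs held 90.5% of the variation of the 6 samples, against a median of 71.0% over all probes, and the genotypes held 6.45%.

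Within pairs, AT3G13120 was level in pair 1-2 and higher in mak3 in the other pairs. The mak3 minus WT differences of pairs 1-2, 3-4 and 5-6 were 0.01, 0.30 and 0.35. After normalization both mak3 arrays lay above both WT arrays in pairs 3-4 and 5-6, and they overlapped in pair 1-2. How many of all probes separate so within a pair was not counted, so this describes the readings only. As deposited the differences were 0.03, 0.12 and -0.15, and the overall difference was 0.00. Relative to the median of all probes as deposited, the gene was at 0.01, 0.27 and 0.29 in these pairs. The normalized differences were above 0 in all 3 pairs, as they were for 16.3% of all probes. Without the pair number the 95% interval was -0.75 to 1.19. With it as a block the SE was 0.10 in place of 0.38, the interval was -0.09 to 0.53 and the unadjusted p in limma was 0.110. The exact test over samples, which leaves out the pairing, gave p = 0.5. Without pair 1-2 the difference was 0.32, with an adjusted p of 0.282 in limma.

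AT1G29070, the other large-subunit gene, had opposite signs in different pairs. Its deposited intensity on mak3 arrays 1 to 6 was 0.272, 0.285, 0.358, 0.282, 0.214 and 0.271, and on WT arrays 1 to 6 it was 0.332, 0.358, 0.323, 0.292, 0.275 and 0.343. The genotypes overlapped. The normalized mak3 minus WT differences of pairs 1-2, 3-4 and 5-6 were -0.31, 0.30 and 0.25, and as deposited they were -0.31, 0.05 and -0.35. After normalization both mak3 arrays lay below both WT arrays in pair 1-2 and above both in pair 3-4, and they overlapped in pair 5-6. As deposited both mak3 arrays lay below both WT arrays in pairs 1-2 and 5-6, and they overlapped in pair 3-4. Such separations within a pair were not counted over all probes on either scale and describe the readings only. The median of all probes as deposited was 0.02, -0.15 and -0.44 in pairs 1-2, 3-4 and 5-6. Relative to it AT1G29070 was at -0.32, 0.20 and 0.09.

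For AT1G29070 the 2 arrays of a pair also agreed less well than for the other members. Their median gap was 0.23 on the log2 scale, larger than for 93.7% of all probes, and reached 0.35 in mak3 pair 3-4. The median gap was 0.06 for AT3G13120 and 0.10 for AT3G54210. The pairs held 9.02% of the variation of AT1G29070 and the genotypes 7.17%, and the remaining 83.8% lay in differences that changed between pairs. Over all probes the medians of these shares were 71.0%, 9.64% and 11.9%. The exact test over samples gave p = 0.7, and the 95% interval of the difference was -0.29 to 0.45.

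**Figure D2:**
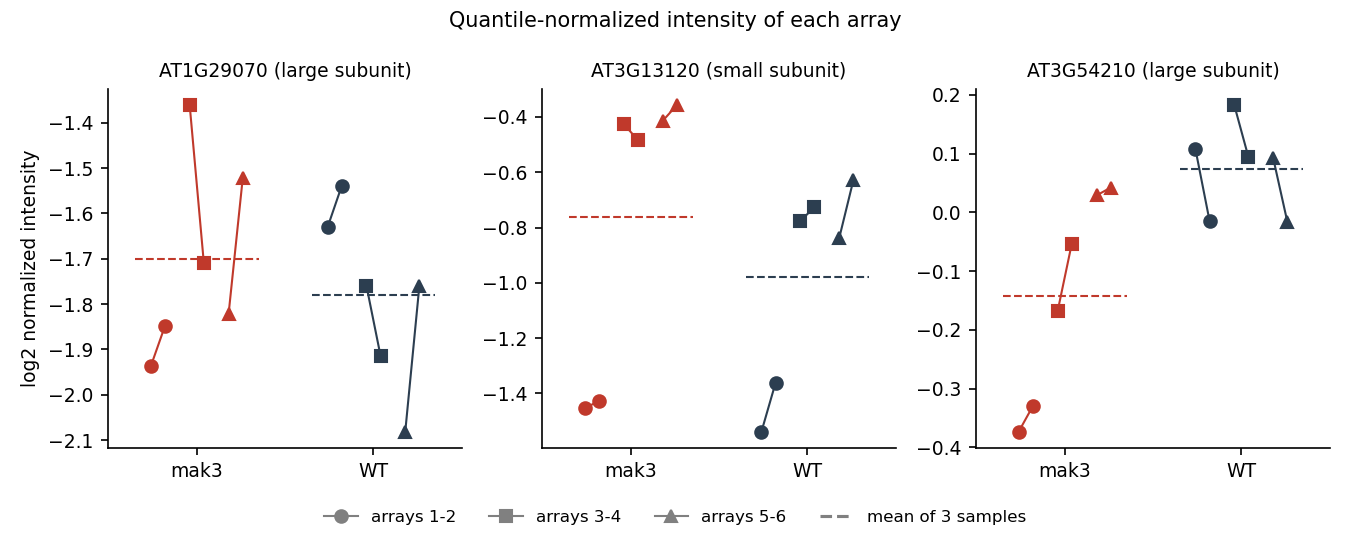
Quantile-normalized intensity (log2, each panel with its own axis) of the 3 genes on each array, with mak3 left of WT, markers joined within each pair of arrays and dashed lines at the mean of 3 samples. In AT3G54210 the mak3 pairs spread from -0.35 to 0.04 and WT stays at 0.04 to 0.14, in AT3G13120 pair 1-2 is low in both genotypes, and in AT1G29070 pair 1-2 is low in mak3 and high in WT.

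The intensities of different probes depend on each probe's length and hybridization as well as on the transcript, and probe lengths were not at hand, so the levels of the 3 genes were not ranked as transcript amounts. As probe brightness only, AT3G54210 exceeded 71.0% to 86.3% of the probes of an array, AT3G13120 26.7% to 71.5% and AT1G29070 15.3% to 32.0%. All 3 were above 0 on every array.

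Probes with neighbouring numbers had differences of the same sign as the members in pairs 3-4 and 5-6. For AT3G54210 in pair 5-6 this holds in name only, as its own difference was -0.0026. The part of the neighbours in the members' differences was not tested. For AT1G29070 the median difference of the 24 probes nearest in number was -0.01, 0.25 and 0.20 in pairs 1-2, 3-4 and 5-6, beside the gene's own -0.31, 0.30 and 0.25. For AT3G54210 it was 0.02, -0.23 and -0.11, beside -0.40, -0.25 and 0.00, so the values of neighbours and gene were close in pair 3-4 only. For AT3G13120 it was 0.00, 0.12 and 0.12, beside 0.01, 0.30 and 0.35. The differences in pair 1-2 of both large-subunit genes had no counterpart in their neighbours. With the running median of neighbouring probes taken off, AT1G29070 was at -0.35, 0.00 and -0.11, AT3G54210 at -0.43, -0.04 and 0.06, and AT3G13120 at 0.09, 0.11 and 0.22.

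**Figure D3:**
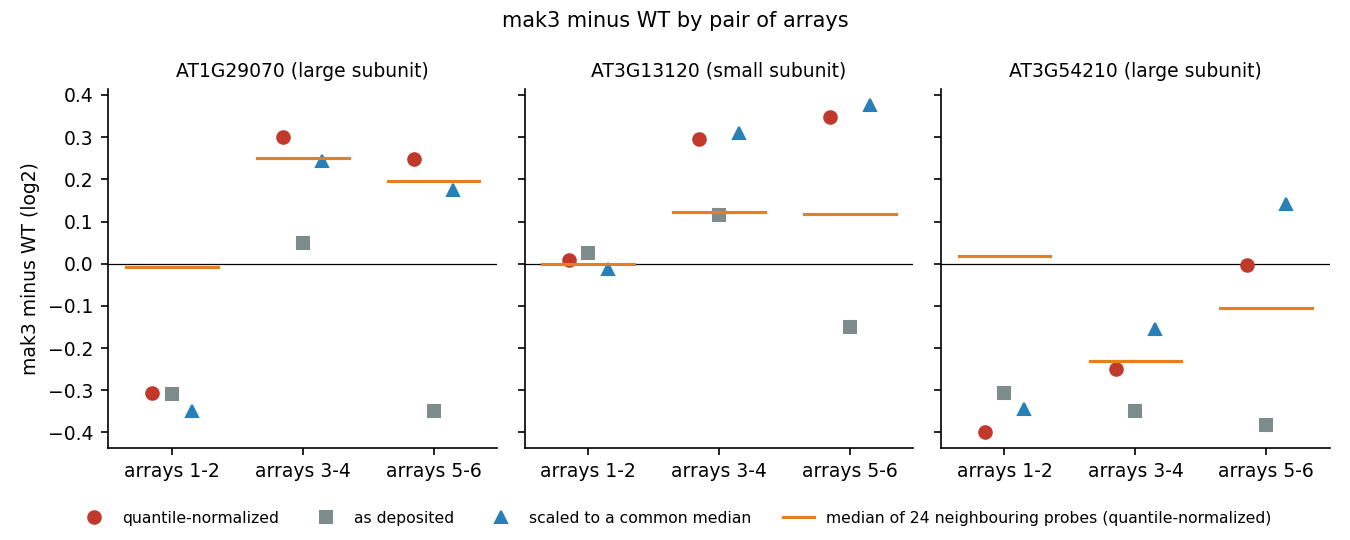
The mak3 minus WT difference (log2) of the 3 genes in each pair of arrays, after quantile normalization, as deposited and scaled to a common median, with orange lines at the median quantile-normalized difference of the 24 neighbouring probes. In pair 1-2 both large-subunit genes lie between -0.31 and -0.40 as deposited and after quantile normalization with neighbours near 0, and in pair 5-6 the deposited and the normalized values lie farthest apart.

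The array held 6 single-gene probes from a list of 41 nuclear genes for plastid ribosomal proteins, the 3 members among them. Of these 6 probes, 4 were higher and 1 lower in mak3 by any amount, against 46.7% and 49.6% of all probes, and AT5G65220 (PRPL29, large subunit) was listed at 0 on all 12 arrays. None passed the test, as for all probes (0%), and none had an unadjusted p under 0.05, which 3.93% of all probes had (13.4% with the pair number as a block, where again none of the 6 did). Their median difference was 0.06, against 0.00 over all probes. As deposited, 0 of the 6 were higher and 5 lower. On that scale the differences of all probes were shifted the same way, with a median of -0.19. The shares of all probes higher and lower as deposited were not counted, so no result about these probes is drawn from the deposited count. AT4G01310 (PRPL5, large subunit) averaged -0.47 ± 0.16 in mak3 and -0.53 ± 0.23 in WT on the log2 scale (SD, n = 3 each), a difference of 0.06 ± 0.16 (SE). The pairs held 86.4% of its variation, against a median of 71.0% over all probes.

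AT1G64510 (PRPS6), the other small-subunit gene on the array, was also lowest in pair 1-2. Its mak3 samples were at -2.31, -1.33 and -1.01 on the log2 scale in pairs 1-2, 3-4 and 5-6, and its WT samples at -2.05, -1.57 and -1.19. In both genotypes pair 1-2 was the lowest and pair 5-6 the highest. The difference was 0.05 ± 0.42 (SE, n = 3 against 3) and the pairs held 94.0% of the variation, beside 90.5% for AT3G13120 and a median of 71.0% over all probes. The 2 arrays of its pair 1-2 lay 0.53 apart in mak3 and 0.83 apart in WT, so its values there are loose.

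**Figure D4:**
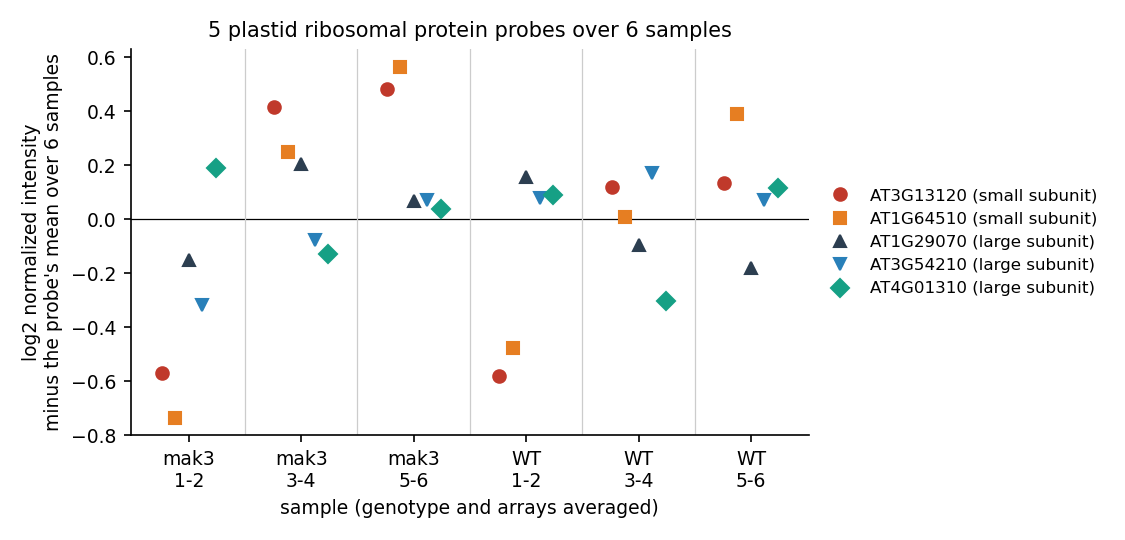
Normalized log2 intensity of 5 plastid ribosomal protein probes in the 6 samples, each minus the probe's own mean, with mak3 left of WT. The small-subunit genes AT3G13120 and AT1G64510 are low in pair 1-2 of both genotypes, while the 3 large-subunit genes lie above their own means in pair 1-2 of WT, and AT3G54210 and AT1G29070 lie below theirs in pair 1-2 of mak3.

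Across the 6 samples AT3G13120 and AT1G64510 had Pearson's r = 0.941. Of 641 single-gene probes above the floor on all arrays, 7 had a higher r with AT3G13120, and the 95th percentile of r with this gene was 0.877. Between members r was 0.41 for AT3G13120 and AT3G54210, 0.20 for AT3G13120 and AT1G29070, and 0.14 for the large-subunit genes AT1G29070 and AT3G54210. Over deviations from the genotype means r was 0.81, 0.15 and 0.46 for these, and 0.96 for AT3G13120 and AT1G64510. The r over deviations was not set against other probes. These correlations share arrays and pairs and describe these 6 samples only.

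The single-gene probes most like AT3G54210 over the 6 samples were AT5G18070 (DRT101) at r = 0.944, AT1G16080 at 0.937 and AT3G23490 (CYN, cyanase) at 0.929. Those most like AT3G13120 were AT3G47100 at 0.990, AT2G36480 at 0.969 and AT4G18180 at 0.951. Those most like AT1G29070 were AT5G55220 at 0.904, AT3G15140 at 0.886 and AT5G40470 at 0.863. The 95th percentile of r over the 641 probes was 0.720 for AT3G54210, 0.877 for AT3G13120 and 0.692 for AT1G29070. Each r given is among the highest of 641 over only 6 samples, so it is high by selection. The array held only 6 plastid ribosomal protein probes, while 641 probes were compared with each member. That none was among these 9 therefore says little.

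Of 18 genes for plastid translation factors and ribosome assembly, 3 probes were at hand. In mak3 2 were higher and 1 lower by any amount, against 46.7% and 49.6% of all probes. None passed the test, as for all probes (0%). A probe naming both AT4G30690 and AT2G24060, genes for plastid initiation factor 3, was at 0.07 ± 0.17 in mak3 minus WT (SE, n = 3 against 3). AT2G25870, a gene for a YbeY-type endoribonuclease, which in bacteria matures ribosomal RNA, had 2 probes, at -0.39 ± 0.09 and 0.02 ± 0.38. The first was the 1 of the 3 with an unadjusted p under 0.05 in limma (0.0080, or 0.0113 in the blocked fit), and it was lower in all 3 pairs. Of all probes 3.93% had such a p (13.4% in the blocked fit), and 20.2% were lower in all 3 pairs. Over the 6 samples these 2 probes of 1 gene correlated at r = 0.170, so these 2 probes did not vary alike. Other genes with several probes were not examined for this. A list of 8 genes for plastid transcription and signalling matched 0 probes, as did a search of gene symbols and synonyms for other ribosomal proteins.

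Of 27 alternative settings for AT3G54210, 6 left the difference itself identical, and the other 21 gave values from -0.35 to -0.12, all below 0. For AT3G13120 20 of 21 settings that moved the difference kept it above 0, and for AT1G29070 17 of 21 did. None of the 3 genes was called in limma under any setting (lowest adjusted p = 0.205).

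**Figure D5:**
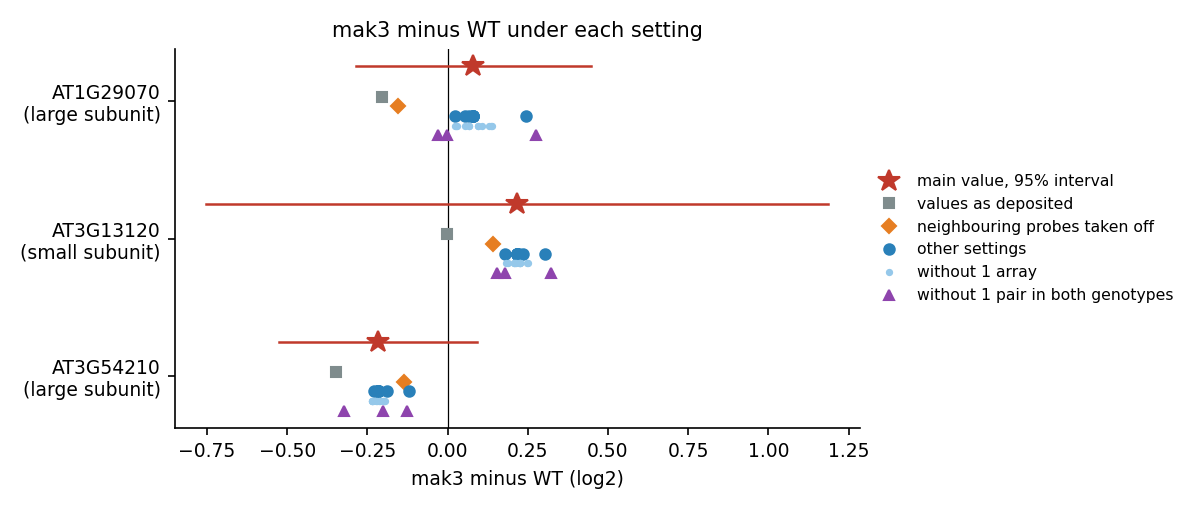
The mak3 minus WT difference (log2) of the 3 genes, as a star with its 95% interval and as smaller markers under each alternative setting. Every marker of AT3G54210 lies below 0 (-0.35 to -0.12), while those of AT3G13120 (0.00 to 0.32) and AT1G29070 (-0.20 to 0.27) reach or cross 0.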

How the data were processed

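The deposited values are 1 linear intensity for each of 3439 probes and 12 arrays. The sources used here do not say how the authors scanned the arrays or corrected and scaled the intensities they deposited, and the scale and its centre are therefore unknown. They are never negative, hold exact zeros and reach an upper limit near 100. Intensities were quantile-normalized, floored at the 1st percentile of positive values (0.0412) and taken to log2. Arrays 1-2, 3-4 and 5-6 were averaged, since their deviations from the genotype mean correlated at 0.758 to 0.883. Genotypes were compared with limma 3.58.1 in R 4.3.3 (lmFit, eBayes, two-sided, Benjamini-Hochberg, threshold 0.05), tested on simulated data first, and with exact permutation tests in SciPy 1.17.1. Same-numbered mak3 and WT samples deviated together (r = 0.602, 0.557 and 0.739), which is taken as pairing by number and rests on the values, not on the labels. The precision is limited by the number of arrays.

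Of the 3439 probes, 692 name 1 gene in the platform annotation, matched through gene identifiers to the RefSeq table of TAIR10.1. Coordinates are left out because the files name no genome build. Usual protein names of the loci are background knowledge. The members and lists were chosen with earlier results of these data known. Named genes were the members, the rest of the ribosomal list, up to 2 genes of each other list and the 3 probes most like each member. The MAK3 transcript was not analysed here. Alternatives covered scaling, floor, dim probes, repeat readings, pairing, weights, neighbouring probes and left-out arrays.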

Additional observations from a re-analysis of the deposited data

How the results depend on the processing

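No alternative called any of the 3 genes. With the pair number as a replicate block limma called 0 probes, as without it, and by construction the differences of AT3G54210, AT3G13120 and AT1G29070 stayed at -0.22, 0.22 and 0.08. With all 12 arrays entered singly, so that repeat readings count as samples, 24 probes were called (10 higher, 14 lower), 1 of the AT2G25870 probes among them (adjusted p = 0.0189) and no plastid ribosomal protein gene. With the values as deposited AT1G29070 was at -0.20 and AT3G13120 at 0.00 (-0.0027), 0 of the ribosomal list and 0 of the translation list were higher, and AT1G64510 was at -0.19, AT4G01310 at -0.15, the second AT2G25870 probe at -0.12 and the initiation factor 3 probe at -0.21, all beside a median of -0.19 over all probes. With neighbouring probes taken off AT1G29070 was at -0.15, AT1G64510 at -0.046 and the initiation factor 3 probe at 0.00 (-0.0037), and 2 of the ribosomal and 1 of the translation probes were higher. The share of all probes that were higher was not counted for the deposited values or with neighbouring probes taken off. With array weights AT1G29070 was at 0.24 (adjusted p = 0.277), and with median scaling at 0.02, where AT3G54210 was at -0.12.

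Leaving out an array or a pair of arrays gave -0.32 to -0.13 for AT3G54210, 0.15 to 0.32 for AT3G13120 and -0.030 to 0.27 for AT1G29070, whose sign turned without pair 3-4 or pair 5-6. It gave -0.086 to 0.21 for AT1G64510, -0.043 to 0.071 for the second AT2G25870 probe, -0.034 to 0.12 for the initiation factor 3 probe, 2 to 4 higher ribosomal probes and 0 to 2 higher translation probes. The share of all probes that were higher was not counted with arrays left out. AT1G29070 was among the dimmest 20% of probes and had no value without them. The cause of these changes was not tested.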
